A study of Homo sapiens with 38 samples.

Results

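The 10 genes described here encode paralogous subunits of the SWI/SNF (BAF) chromatin remodelling complex: SMARCA2 and SMARCA4, ARID1A and ARID1B, SMARCD1, SMARCD2 and SMARCD3, and BCL7A, BCL7B and BCL7C. They were chosen by name as families within which the complex exchanges subunits, and each symbol matched 1 of the 18011 genes in the count table. All 10 passed the filter on low counts at both times. The set was drawn up because SMARCD3 and BCL7A responded to the drugs in these same samples, so their values against DMSO are given as a description, with no test.

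RNA was sequenced from cultures of 6 established lines (OCILY1, PFEIFFER, SUDHL4, SUDHL6, TOLEDO and WSUDLCL2) derived from human diffuse large B-cell lymphoma, an aggressive tumour of mature B cells. The cultures received pracinostat, vorinostat or the solvent DMSO. Pracinostat and vorinostat, both hydroxamates, block histone deacetylases, which remove acetyl groups from histones and other proteins. At 6 h there were 6 pracinostat, 5 vorinostat and 6 DMSO libraries, the vorinostat libraries covering all lines but SUDHL6. At 14 days there were 5 libraries each of pracinostat, of vorinostat and of the 2 DMSO sets titled DMSOP and DMSOV, 1 per line and without SUDHL6. Each drug was set against the DMSO set whose title carries its first letter, a reading that the labels do not state. The sources used here give no doses. Each line is a population of cultured tumour cells and stands for itself as a replicate. Whether the treatments of a line were grown as independent cultures is not stated in the labels.

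SWI/SNF complexes use ATP to slide and evict nucleosomes, which exposes DNA to transcription factors. A complex holds 1 ATPase motor, SMARCA2 (BRM) or SMARCA4 (BRG1), and the canonical form holds 1 ARID1 subunit, ARID1A or ARID1B, which bridges the core and the motor. The SMARCD paralogs occupy the same place in the core and differ between tissues: SMARCD3 is best known from heart and muscle development in the mouse, and SMARCD2 from the maturation of granulocytes. The BCL7 proteins sit near the motor and the nucleosome. BCL7A was first described at a translocation in a Burkitt lymphoma line and is recurrently mutated in diffuse large B-cell lymphoma, as are SMARCA4 and ARID1A.

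The promoters of SMARCD3 and BCL7A, the genes of the 10 with the largest differences from DMSO, are shown with their GC boxes (GGGCGG or CCGCCC, either strand) in capitals. Each stretch runs from 250 bases before to 50 bases after a transcription start in RefSeq (GRCh38.p14) and is printed 5′ to 3′ on the strand of its gene. SMARCD3 has 3 such windows on the minus strand, chr7:151277100-151277399, chr7:151276685-151276984 and chr7:151248645-151248944, and BCL7A has 1 on the plus strand, chr12:122021634-122021933.
SMARCD3 window 1: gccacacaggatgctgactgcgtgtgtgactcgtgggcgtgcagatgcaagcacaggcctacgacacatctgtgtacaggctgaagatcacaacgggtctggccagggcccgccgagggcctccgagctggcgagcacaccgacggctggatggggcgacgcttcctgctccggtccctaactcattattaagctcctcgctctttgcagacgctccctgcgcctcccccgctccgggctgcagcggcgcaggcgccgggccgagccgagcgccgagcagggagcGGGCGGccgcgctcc
SMARCD3 window 2: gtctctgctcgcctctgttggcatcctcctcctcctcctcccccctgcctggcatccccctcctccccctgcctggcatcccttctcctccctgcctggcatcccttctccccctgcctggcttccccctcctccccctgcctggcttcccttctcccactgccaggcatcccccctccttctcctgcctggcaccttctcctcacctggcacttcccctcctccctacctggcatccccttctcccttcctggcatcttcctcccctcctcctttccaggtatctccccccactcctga
SMARCD3 window 3: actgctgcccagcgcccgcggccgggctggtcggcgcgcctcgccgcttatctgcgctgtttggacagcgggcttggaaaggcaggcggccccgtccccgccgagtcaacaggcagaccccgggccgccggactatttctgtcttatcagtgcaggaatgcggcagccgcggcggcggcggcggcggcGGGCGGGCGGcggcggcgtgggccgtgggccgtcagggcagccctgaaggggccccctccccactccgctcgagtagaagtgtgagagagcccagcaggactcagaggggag
BCL7A: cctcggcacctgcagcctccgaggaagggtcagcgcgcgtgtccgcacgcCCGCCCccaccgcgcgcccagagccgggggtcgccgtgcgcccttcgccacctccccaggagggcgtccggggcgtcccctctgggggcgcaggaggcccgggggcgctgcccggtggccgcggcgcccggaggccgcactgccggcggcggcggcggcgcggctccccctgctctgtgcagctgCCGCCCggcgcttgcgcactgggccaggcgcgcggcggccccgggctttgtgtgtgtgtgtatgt

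These windows held 1, 0 and 2 GC boxes for SMARCD3 and 2 for BCL7A; the 2 in the third SMARCD3 window overlap. A GC box was present in 45.0% of all 35116 RefSeq windows of this length. G and C made up 68.7%, 66.0% and 73.3% of the SMARCD3 windows and 80.3% of the BCL7A window, against a median of 58.7% over all windows. The second SMARCD3 window is a run of C- and T-rich repeats with 1 CpG, whereas the first and the third hold 31 and 36 CpGs and the BCL7A window 44. On either strand, none of the 4 windows held the CCAAT box, which 34.6% of all windows hold. Nor did they hold a TATA box written as TATAAA (in 11.5% of all windows) or the cyclic AMP response element TGACGTCA (in 1.85%). A match or its absence describes the letters only, and which of the SMARCD3 starts was used in these cells was not measured by counts per gene.

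Library totals ran from 3.19 to 8.92 M counts (M, mega). CPM are counts per M of the library total, scaled by the TMM factor of the library. The 3 counts that a count of 0 allows stood for 0.332 to 1.08 CPM, a limit that covers counting error only. The B-cell markers MS4A1, CD79A, CD79B, PAX5, EBF1 and CD22 had counts in every library, MS4A1 at 354 to 6500 CPM. EBF1 ran from 0.271 CPM in DMSO at 6 h, which is below that limit, to 280 CPM with vorinostat at 14 days. Of these 6, edgeR called 4 lower with pracinostat and 5 lower with vorinostat at 6 h, and 2 higher with each drug at 14 days. Against DMSO at 6 h, edgeR's quasi-likelihood test called 5289 of 13177 genes with pracinostat (40.1%; 2794 higher, 2495 lower) and 5790 with vorinostat (43.9%; 3038 higher, 2752 lower). At 14 days it called 3167 of 14037 genes with pracinostat (22.6%; 1733 higher, 1434 lower) and 5274 with vorinostat (37.6%; 2864 higher, 2410 lower). With library totals in place of TMM factors the split was 3556 higher and 1929 lower for pracinostat at 6 h, and 2308 higher and 2931 lower for vorinostat at 14 days. Both drugs at 6 h were set against the same DMSO libraries. Whatever the test, 16.2% of genes were higher and 15.2% lower in every line with pracinostat at 6 h, and 21.8% and 19.2% with vorinostat. At 14 days these shares were 15.1% and 17.2% with pracinostat and 17.0% and 17.5% with vorinostat. A gene was called, and is said to have risen or fallen, at an adjusted p under 0.05.

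Without drug, the 10 genes spanned a wide range. On the scale of CPM per kilobase of exon, SMARCD2 averaged 52.0 ± 12.9, SMARCD1 35.9 ± 17.4, BCL7A 32.9 ± 12.5, SMARCA4 26.3 ± 10.2, BCL7B 18.7 ± 8.21 and ARID1A 15.7 ± 2.64 (SD, n = 16 DMSO libraries of 6 lines). Below these came SMARCA2 at 4.20 ± 1.40, ARID1B at 2.64 ± 0.776, BCL7C at 2.14 ± 0.707 and SMARCD3 at 0.633 ± 0.352 CPM per kilobase. Neighbours in this order from SMARCD2 to ARID1A, and ARID1B and BCL7C, differed by less than the larger SD of the pair. The steps from ARID1A to SMARCA2, from SMARCA2 to ARID1B and from BCL7C to SMARCD3 were larger than that. With the longest transcript as length SMARCA4 came first, at 71.7 ± 27.7 CPM per kilobase, and SMARCD3 was still last at 1.36 ± 0.757. The step from SMARCA2 to ARID1B was not seen with that length, at 11.1 ± 3.68 and 10.9 ± 3.21. BCL7C then lay apart from ARID1B, at 3.91 ± 1.29.

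The lines differed from each other more for some genes than for others. Mean CPM over the DMSO libraries of a line differed 4.87-fold for SMARCD3, between 6.67 in PFEIFFER and 1.37 in TOLEDO, and 1.52-fold for ARID1A, between 308 in TOLEDO and 203 in PFEIFFER. SMARCA4 was highest in SUDHL4 with 512, 782 and 790 CPM in its 3 DMSO libraries, above every DMSO library of the other 5 lines. BCL7A was highest in the only DMSO library of SUDHL6, at 405 CPM, and lowest in PFEIFFER, at 106 to 120 CPM in 3 libraries. BCL7C was low in every line, at 2.56 to 15.2 CPM.

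**Figure D1:**
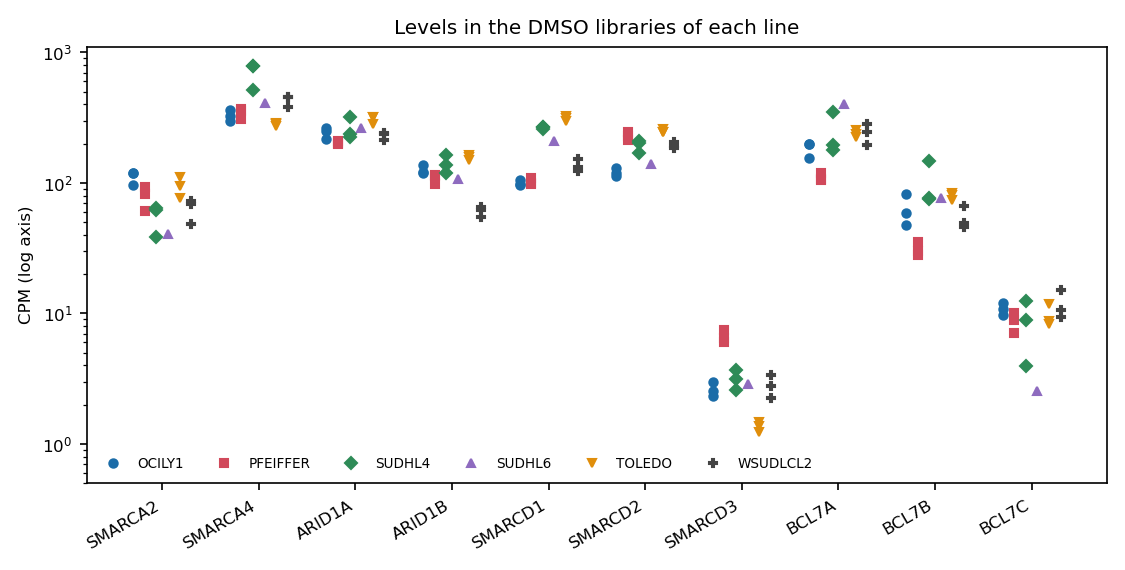
Level of each of the 10 genes in the DMSO libraries, in CPM on a log axis, with each point a library and the colour and marker giving the cell line. SMARCD3 lies between 1.24 and 7.44 CPM in every DMSO library, while SMARCA4 lies between 274 and 790 CPM.

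The ATPase genes moved in opposite directions at 6 h. SMARCA2 (chr9:1980290-2193624, plus strand, GRCh38) was at 74.4, 89.4 and 109 CPM (lowest, median, highest of 6 lines) with pracinostat, and at 101, 84.4, 72.0, 108 and 91.8 CPM with vorinostat in OCILY1, PFEIFFER, SUDHL4, TOLEDO and WSUDLCL2, against 38.8, 54.5 and 96.0 CPM in DMSO. It was higher than in DMSO in each of 6 lines with pracinostat and each of 5 with vorinostat, though the groups overlap, with OCILY1 at 96.0 CPM in DMSO. The rise was largest in SUDHL6 (2.32-fold, pracinostat) and smallest in OCILY1 (1.09-fold with pracinostat, 1.05-fold with vorinostat). In the edgeR fit the log2 fold change was 0.65 ± 0.13 (SE, adjusted p = 0.00107) with pracinostat and 0.60 ± 0.14 (adjusted p = 0.00238) with vorinostat. In these bulk samples, fewer cells of a type and less RNA per cell cannot be told apart.

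SMARCA4 (chr19:10960825-11079426, plus strand) was lower in every line with either drug at 6 h, at 171, 229 and 412 CPM with pracinostat and 161, 245 and 336 CPM with vorinostat (lowest, median, highest), against 274, 344 and 512 CPM in DMSO. The log2 fold change was -0.54 ± 0.10 with pracinostat (adjusted p = 0.000568) and -0.58 ± 0.11 with vorinostat (adjusted p = 0.000486). At 14 days SMARCA4 was still lower in 5 of 5 lines: 215, 243, 535, 211 and 280 CPM with pracinostat in OCILY1, PFEIFFER, SUDHL4, TOLEDO and WSUDLCL2, against 325, 356, 782, 281 and 453 CPM in DMSOP. With vorinostat it was at 245, 179, 446, 197 and 327 CPM in the same order of lines, against 360, 371, 790, 289 and 457 CPM in DMSOV. The log2 fold changes were -0.54 ± 0.11 (adjusted p = 0.00311) and -0.66 ± 0.11 (adjusted p = 0.000299).

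SMARCA2 did not show its 6 h difference at 14 days. It averaged 89.5 ± 32.3 CPM with pracinostat and 85.5 ± 23.1 CPM in DMSOP, and 93.8 ± 23.4 CPM with vorinostat and 92.0 ± 23.7 CPM in DMSOV (SD, n = 5 each). The 95% intervals of the log2 fold change were -0.17 to 0.27 and -0.16 to 0.28. The drug effect on SMARCA2 at 14 days was below that at 6 h by a log2 difference of -0.63 ± 0.17 for pracinostat (adjusted p = 0.00929) and -0.58 ± 0.17 for vorinostat (adjusted p = 0.0157), in the fit of all libraries with an interaction term. The pracinostat call was lost without SUDHL4 (adjusted p = 0.109), and the vorinostat call without SUDHL4 (0.0813), TOLEDO (0.06) or WSUDLCL2 (0.053). DMSO cultures also differed between the times: the log2 difference of SMARCA2 was 0.55 ± 0.11 at 14 days against 6 h (adjusted p = 0.00204). DMSOP and DMSOV libraries of a line counted separately in that fit, so its adjusted p may be too small. Culture time and library set cannot be told apart there. The DMSO level at 14 days, 85.5 to 92.0 CPM on average, was thus near the 91.5 ± 13.5 CPM (SD, n = 6) seen with pracinostat at 6 h.

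**Figure D2:**
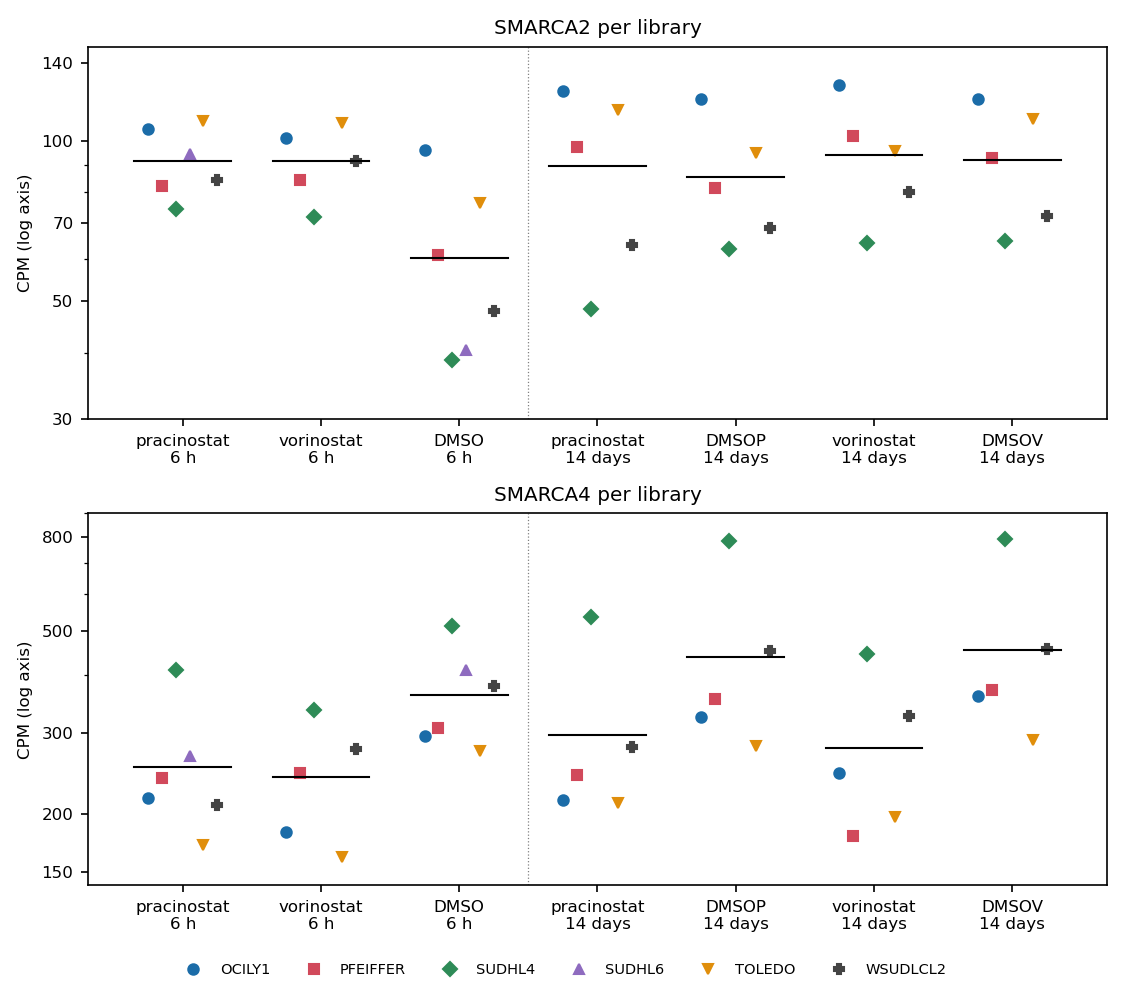
SMARCA2 and SMARCA4 in every library, in CPM on a log axis, with drug groups left of their DMSO groups, 6 h on the left and 14 days on the right of the dotted line, and the marker giving the line. SMARCA2 averages 91.5 CPM with pracinostat and 60.1 CPM in DMSO at 6 h and does not separate at 14 days, and SMARCA4 is lower in each line with each drug at both times.

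The ARID1 subunits both fell at 6 h. ARID1A (chr1:26693236-26782110, plus strand), the larger of the pair by count, was at 101, 160 and 201 CPM with pracinostat and 126, 167 and 184 CPM with vorinostat, against 198, 251 and 320 CPM in DMSO (lowest, median, highest). The vorinostat and DMSO ranges did not overlap, which 4.02% of all tested genes showed in this direction. Log2 fold changes were -0.68 ± 0.11 with pracinostat (adjusted p = 0.000159) and -0.66 ± 0.12 with vorinostat (adjusted p = 0.000299). ARID1B (chr6:156776020-157210779, plus strand) had log2 fold changes of -0.80 ± 0.12 (adjusted p = 8.65e-05) and -0.85 ± 0.13 (adjusted p = 7.03e-05). It averaged 69.2 ± 21.0 CPM with pracinostat (SD, n = 6) and 66.5 ± 16.5 CPM with vorinostat (n = 5), against 120 ± 38.8 CPM in DMSO (n = 6), and was lower in every line.

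At 14 days ARID1B was near its DMSO level. It averaged 110 ± 23.1 CPM with pracinostat and 118 ± 35.7 CPM in DMSOP, and 112 ± 45.7 CPM with vorinostat and 115 ± 36.7 CPM in DMSOV (SD, n = 5 each), with 95% intervals of the log2 fold change of -0.38 to 0.29 and -0.36 to 0.31. The ARID1B effect was higher at 14 days than at 6 h by a log2 difference of 0.73 ± 0.20 for pracinostat (adjusted p = 0.0108, and 0.0579 without WSUDLCL2) and 0.79 ± 0.21 for vorinostat (adjusted p = 0.00667). ARID1A was lower in 5 of 5 lines with each drug at 14 days. Its log2 fold change was -0.37 ± 0.13 with vorinostat (adjusted p = 0.0355) and -0.26 ± 0.13 with pracinostat (adjusted p = 0.157, not called). The vorinostat call was lost without OCILY1 (adjusted p = 0.0526), PFEIFFER (0.113), TOLEDO (0.102) or WSUDLCL2 (0.0693). The change of the ARID1A effect between the times was not called for either drug in the edgeR fit (adjusted p = 0.0887 and 0.306). For pracinostat it was called with DESeq2 (log2 difference 0.43, adjusted p = 0.042). It was also called in edgeR with the mean of both DMSO sets as control (0.41, adjusted p = 0.0486). ARID1A and ARID1B are thus not shown to differ in this change.

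Among the SMARCD paralogs, SMARCD1 fell while SMARCD2 did not pass the test. SMARCD1 (chr12:50084972-50100712, plus strand) was lower in every line at both times. At 6 h its log2 fold change was -0.83 ± 0.11 with pracinostat (adjusted p = 4.09e-05) and -0.93 ± 0.12 with vorinostat (adjusted p = 2.04e-05), and levels averaged 113 ± 58.4 CPM (SD, n = 6) and 96.2 ± 43.7 CPM (n = 5), against 193 ± 86.1 CPM in DMSO (n = 6). At 14 days it was -0.63 ± 0.12 with vorinostat (adjusted p = 0.00113) and -0.39 ± 0.12 with pracinostat (adjusted p = 0.0327). The pracinostat call was lost when any of the lines was left out, at adjusted p = 0.0702 without OCILY1, 0.0769 without PFEIFFER, 0.0569 without SUDHL4, 0.1 without TOLEDO and 0.087 without WSUDLCL2. SMARCD2 (chr17:63832081-63843065, minus strand), the most abundant of the 10 per kilobase of union exon, had log2 fold changes of 0.14 and 0.01 at 6 h and -0.18 and -0.12 at 14 days with pracinostat and vorinostat, with adjusted p between 0.219 and 0.941. With library totals as the scaling it was called higher with pracinostat at 6 h (log2 fold change 0.24, adjusted p = 0.043).

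SMARCD3 (chr7:151238764-151277896, minus strand) was the rarest of the 10 in DMSO and was higher in every line with each drug at each time. With pracinostat at 14 days it stood at 49.0 CPM in OCILY1, 32.3 in PFEIFFER, 20.9 in SUDHL4, 11.7 in TOLEDO and 14.8 in WSUDLCL2, against 2.99, 6.09, 3.13, 1.38 and 3.35 CPM in DMSOP in the same order. With vorinostat at 14 days it stood at 20.9, 24.1, 19.1, 7.89 and 13.1 CPM, against 2.31, 6.48, 3.67, 1.48 and 2.78 CPM in DMSOV. Neither drug group overlapped its DMSO group. Behind these levels lie 66 to 408 counts per library with pracinostat and 43 to 171 with vorinostat, against 10 to 50 in DMSOP and 9 to 47 in DMSOV.

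The fitted log2 fold change of SMARCD3 at 14 days was 2.91 ± 0.27 (SE) with pracinostat, a 7.54-fold difference, and 2.39 ± 0.27 with vorinostat, a 5.25-fold difference. On the log2(CPM + 0.5) scale, single lines ranged from 3.97-fold in WSUDLCL2 to 14.2-fold in OCILY1 with pracinostat, and from 3.53-fold in PFEIFFER to 7.60-fold in OCILY1 with vorinostat. OCILY1 thus had the largest fold with each drug although its DMSO level was not the lowest. At 14 days, 0.997% of all tested genes with pracinostat and 1.91% with vorinostat were higher with no overlap of the groups.

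At 6 h the difference was smaller and the groups overlapped. SMARCD3 was at 3.66, 4.71 and 14.8 CPM with pracinostat (lowest, median, highest of 6 lines) and at 15.5, 10.7, 7.37, 3.47 and 5.84 CPM with vorinostat in OCILY1, PFEIFFER, SUDHL4, TOLEDO and WSUDLCL2, against 1.24, 2.58 and 7.44 CPM in DMSO. The fitted log2 fold changes were 1.22 ± 0.27 and 1.41 ± 0.29. OCILY1 again stood out, at 5.03-fold with pracinostat and 5.24-fold with vorinostat, while the other lines ranged from 1.34-fold to 2.53-fold. The fold change at 14 days minus that at 6 h was a log2 difference of 1.68 ± 0.39 for pracinostat and 0.94 ± 0.41 for vorinostat. SMARCD3 was chosen on its drug response in these samples, so these differences are a description, with no test. The vorinostat difference was the smaller and had the larger SE. It ran from 0.85 to 1.03 with each line left out in turn.

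Marker lists of muscle, where SMARCD3 is best known, and of neurons and myeloid cells gave these values. Of the muscle list only ACTA1 was in the table, at no more than 1.30 CPM in any library. The neuronal list (SYP, TUBB3 and SNAP25 of 4) summed to 4.91 to 36.0 CPM with pracinostat and 2.20 to 28.1 CPM with vorinostat at 14 days, against 1.25 to 20.1 CPM in DMSOP and 0.989 to 20.7 CPM in DMSOV. SNAP25 was at 0 in all 10 DMSO libraries of that time and in 2 libraries with each drug. Its medians were 0.447 CPM with pracinostat and 1.13 CPM with vorinostat, near the limit of a count of 0, and its highest values 6.6 and 2.32 CPM. The myeloid markers ITGAM, CSF1R and CD33 (3 of 5 in the list) rose with each drug at 14 days. Their sum per library had a median of 13.9 CPM (0.767 to 19.6) with pracinostat and 16.0 CPM (1.10 to 37.0) with vorinostat. The median sum was 0.231 CPM (0 to 1.57) in DMSOP and 0.659 CPM (0 to 1.65) in DMSOV, so the ranges overlapped. Counts from mitochondrially encoded genes made up 11.1% to 17.0% with pracinostat and 10.5% to 17.5% with vorinostat at 14 days, against 6.45% to 11.0% in DMSOP and 6.76% to 12.0% in DMSOV. Their part in the SMARCD3 result was not tested.

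BCL7A (chr12:122019422-122062044, plus strand) showed the reverse timing, with a low level at 6 h that was not seen at 14 days. At 6 h it was at 33.6, 82.0 and 110 CPM with pracinostat (lowest, median, highest of 6 lines), and at 69.9, 31.8, 87.5, 62.3 and 95 CPM with vorinostat in OCILY1, PFEIFFER, SUDHL4, TOLEDO and WSUDLCL2, against 120, 270 and 405 CPM in DMSO. The drug groups did not overlap DMSO, which 2.25% of all tested genes showed in this direction with pracinostat and 4.02% with vorinostat. The fitted log2 fold changes were -1.72 ± 0.12 and -1.77 ± 0.13, levels of 0.304 and 0.294 times those in DMSO. OCILY1 had the smallest difference, 0.463 times its DMSO level with pracinostat and 0.451 with vorinostat, while the other lines lay between 0.246 and 0.334 times theirs. The sum of the 6 B-cell markers was also lower at 6 h, with a median of 2500 CPM (2050 to 3620) with pracinostat and 2530 CPM (1790 to 3190) with vorinostat, against 5450 CPM (2640 to 6690) in DMSO. Of the markers, EBF1 and CD22 were not called with pracinostat at 6 h, and CD22 was not called with vorinostat. At 14 days the median sum of the 6 markers was 6440 CPM (3120 to 7620) with pracinostat and 4260 CPM (3950 to 8990) with vorinostat, against 3180 CPM (2520 to 5870) in DMSOP and 3380 CPM (2460 to 4460) in DMSOV. Their part in the BCL7A values and in the falls of the other subunits at 6 h was not tested.

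At 14 days BCL7A was at 159, 186, 216, 168 and 312 CPM with pracinostat in OCILY1, PFEIFFER, SUDHL4, TOLEDO and WSUDLCL2, against 198, 108, 179, 236 and 246 CPM in DMSOP. With vorinostat it was at 180, 186, 215, 200 and 165 CPM, against 197, 106, 195, 226 and 196 CPM in DMSOV. The groups overlapped and the fitted log2 fold changes were 0.16 ± 0.19 and 0.12 ± 0.19. PFEIFFER, the line with the lowest BCL7A in DMSO, had the largest positive difference with each drug, 1.73-fold and 1.76-fold. The effect at 14 days exceeded that at 6 h by a log2 difference of 1.85 ± 0.23 for pracinostat and 1.85 ± 0.24 for vorinostat.

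**Figure D3:**
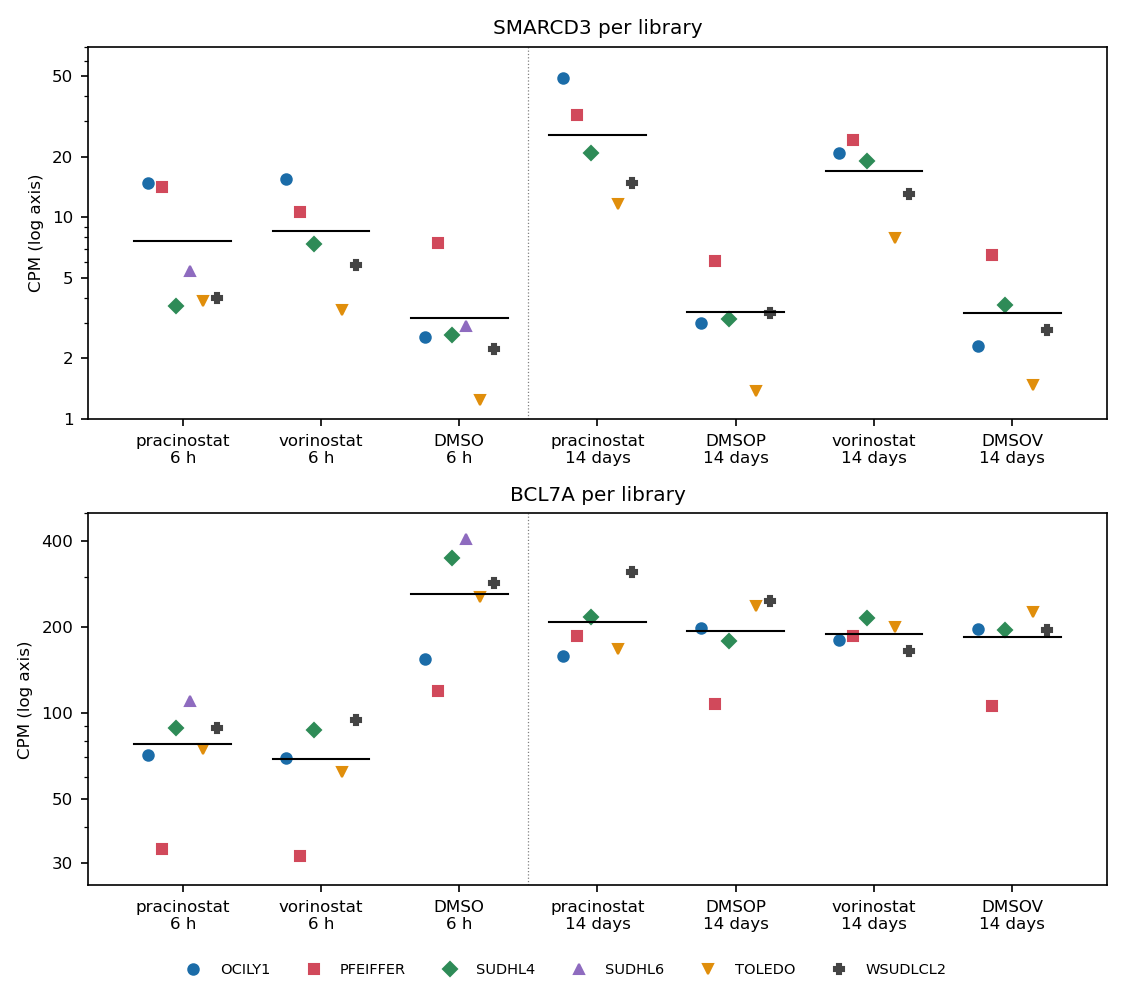
SMARCD3 and BCL7A in every library, in CPM on a log axis, with drug groups left of their DMSO groups, 6 h on the left and 14 days on the right of the dotted line, and the marker giving the line. At 14 days SMARCD3 lies at 7.89 to 49.0 CPM with drug and at 1.38 to 6.48 CPM in DMSO, and BCL7A separates from DMSO at 6 h and not at 14 days.

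The other BCL7 genes differed less from DMSO than BCL7A at 6 h, while at 14 days the BCL7B fold changes were the larger in size. BCL7B (chr7:73536356-73558002, minus strand) fell at 6 h, at 53.7 ± 15.5 CPM with pracinostat (SD, n = 6) and 49.4 ± 15.9 CPM with vorinostat (n = 5), against 81.7 ± 36.9 CPM in DMSO (n = 6). Its log2 fold changes were -0.55 ± 0.13 (adjusted p = 0.00309) and -0.66 ± 0.14 (adjusted p = 0.0011). At 14 days it was -0.46 ± 0.15 with vorinostat (adjusted p = 0.021) and -0.32 ± 0.14 with pracinostat (adjusted p = 0.117, not called). The vorinostat call was lost without SUDHL4 (adjusted p = 0.103), TOLEDO (0.0694) or WSUDLCL2 (0.0726). BCL7B was also lower in DMSO at 14 days than at 6 h, by a log2 difference of -0.47 ± 0.12 (adjusted p = 0.014), a call lost without OCILY1 (0.0677), SUDHL4 (0.104) or WSUDLCL2 (0.0754). BCL7C (chr16:30833626-30894960, minus strand) was called in no comparison, with 95% intervals of the log2 fold change as wide as -0.66 to 0.50 with pracinostat and -0.61 to 0.58 with vorinostat at 14 days, where its level was near 10 CPM.

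Of the 8 paralogs other than SMARCD3 and BCL7A, 1 rose and 5 fell with each drug at 6 h, where 21.2% of all tested genes rose and 18.9% fell with pracinostat and 23.1% and 20.9% with vorinostat. At 14 days 0 of the 8 rose with either drug, where 12.3% of all tested genes rose with pracinostat and 20.4% with vorinostat. Of the 8, 2 fell with pracinostat and 4 with vorinostat, where 10.2% and 17.2% of all tested genes fell. In the test of the effect at 14 days against 6 h, SMARCA2 was lower and ARID1B higher for each drug, where 19.4% of all genes were called for pracinostat (9.53% higher, 9.83% lower) and 23.4% for vorinostat (11.2% higher, 12.2% lower). In counts these were 1470 higher and 1516 lower genes for pracinostat and 1722 higher and 1883 lower for vorinostat. With library totals that split was 1028 higher and 2316 lower for pracinostat and 1256 higher and 2573 lower for vorinostat. In DMSO at 14 days against 6 h, SMARCA2 was higher and BCL7B lower, where 7.56% of genes were called (3.54% higher, 4.02% lower). SMARCD3 and BCL7A were not called in that comparison of DMSO cultures, with log2 differences of 0.09 ± 0.26 (adjusted p = 0.886) and -0.28 ± 0.16 (adjusted p = 0.317).

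**Figure D4:**
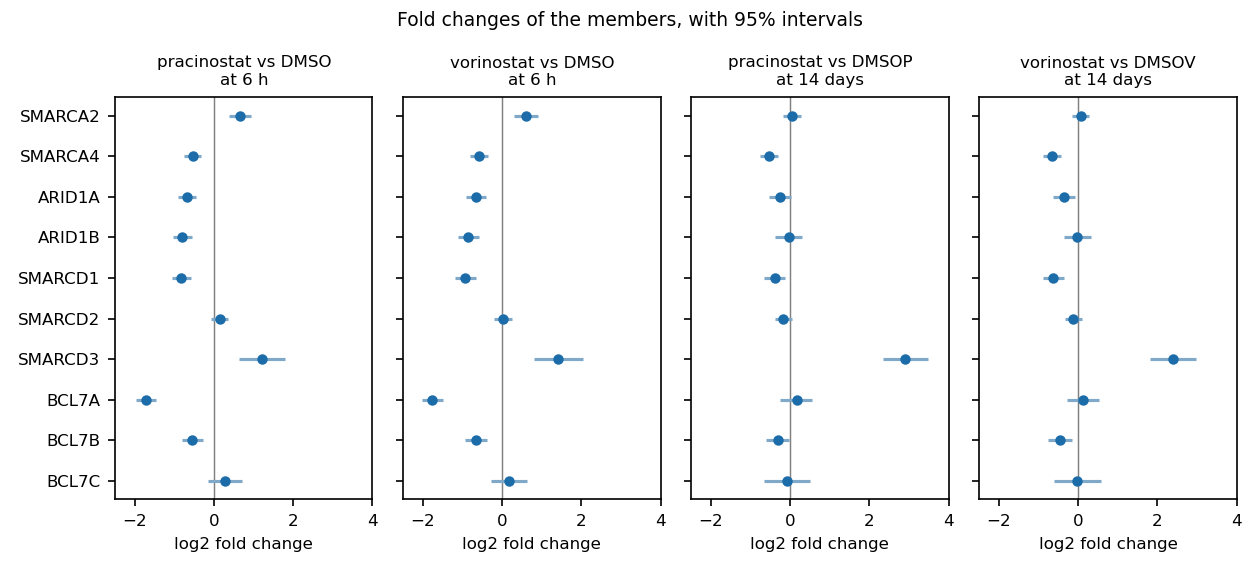
Log2 fold change of each of the 10 genes against DMSO with its 95% interval, in a panel for each drug and time. SMARCD3 lies to the right in every panel, BCL7A furthest to the left at 6 h with -1.72 and -1.77, and at 14 days SMARCA4 and SMARCD1 lie left of 0 with each drug.

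Set against each other, pracinostat and vorinostat gave no called difference in any of the 10 genes. At 6 h, 2 of 13177 genes were called in that contrast (0.0152%), and 1214 had an unadjusted p under 0.05. At 14 days, where each drug was first set against its own DMSO set, edgeR and DESeq2 called 0 genes (0%), and 552 had an unadjusted p under 0.05 in edgeR. For BCL7A the log2 difference of pracinostat over vorinostat at 6 h was 0.05, with a 95% interval of -0.21 to 0.31 (adjusted p = 0.938). For SMARCD3 at 14 days it was 0.52, with an interval of -0.26 to 1.31 (adjusted p = 1), which leaves room for a difference of more than 2-fold. The narrowest interval at 6 h was that of SMARCD2, -0.10 to 0.35, and of SMARCA4, -0.19 to 0.27. As doses are not given, these contrasts, and those between 6 h and 14 days, compare the cultures as treated.

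Ratios between paralogs within a library were computed from CPM + 0.5 and compared with DMSO in each line, as a description. The ratio of SMARCA2 to SMARCA4 was higher than in DMSO in every line at both times, by a mean log2 change of 1.21 ± 0.49 with pracinostat (SD, n = 6) and 1.14 ± 0.34 with vorinostat (n = 5) at 6 h, and 0.58 ± 0.24 and 0.72 ± 0.31 (n = 5 each) at 14 days. Among single lines at 6 h the pracinostat change was largest in SUDHL6, at 3.59-fold, and smallest in OCILY1, at 1.49-fold. The SMARCD3 to SMARCD1 ratio was higher in every line too, by 1.91 ± 0.85 and 2.27 ± 0.67 at 6 h and 3.09 ± 0.66 and 2.89 ± 0.55 at 14 days.

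The ratio of BCL7A to BCL7B was lower in every line at 6 h, by mean log2 changes of -1.16 ± 0.42 with pracinostat and -1.06 ± 0.39 with vorinostat. At 14 days it was higher in 4 of 5 lines with each drug, by 0.44 ± 0.54 and 0.58 ± 0.46, with OCILY1 the exception. ARID1B to ARID1A changed little at 6 h, -0.12 ± 0.23 and -0.17 ± 0.27, and was higher in 4 of 5 lines with pracinostat and 5 of 5 with vorinostat at 14 days, by 0.22 ± 0.19 and 0.34 ± 0.24. The SMARCD2 to SMARCD1 ratio was higher by 0.97 ± 0.25 and 0.93 ± 0.31 at 6 h, in every line, and by 0.21 ± 0.18 and 0.52 ± 0.36 at 14 days.

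**Figure D5:**
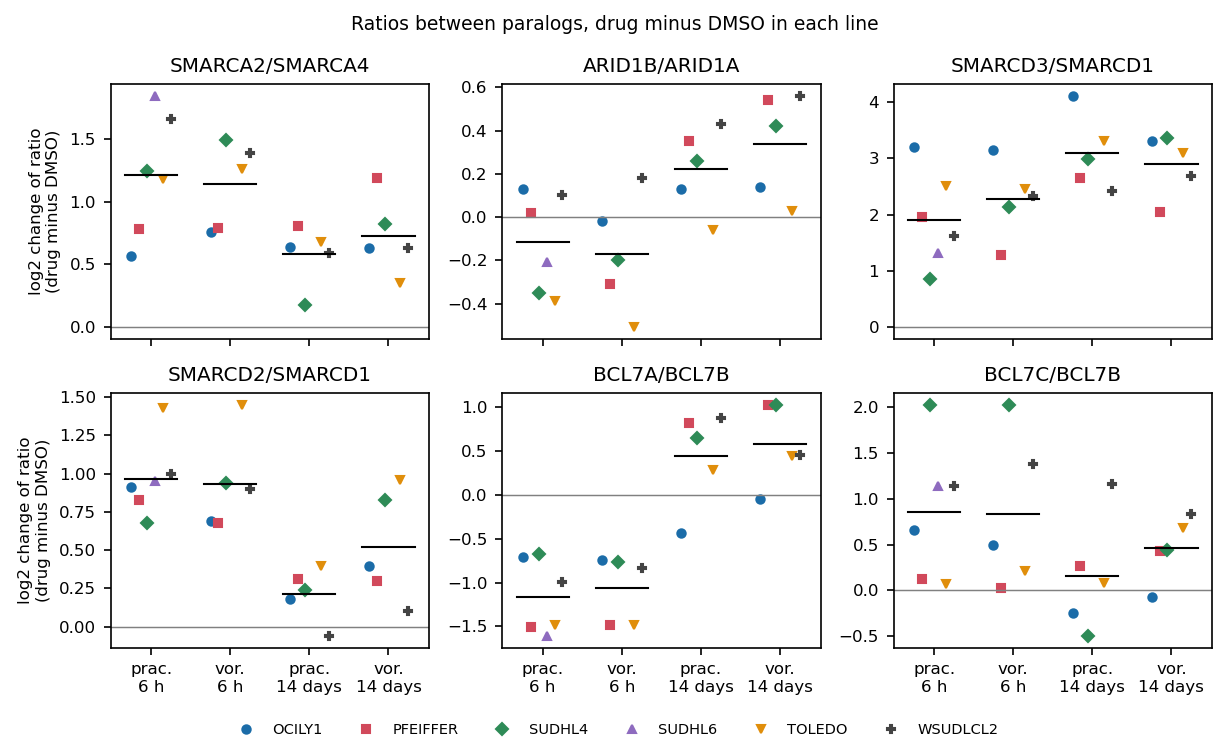
Log2 change of 6 ratios between paralogs, drug minus DMSO within each line, with each point a line and the groups being each drug at 6 h and 14 days. The SMARCA2 to SMARCA4 and SMARCD3 to SMARCD1 ratios lie above 0 in every line, and BCL7A to BCL7B lies below 0 at 6 h.

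Per kilobase of union exon, the most abundant member by group mean was the same with and without drug in 3 of the 4 families. In single lines the SMARCD family differed from this at 6 h: SMARCD2 made up 57.6% of it in SUDHL4 and 63.1% in SUDHL6 with pracinostat, against 46.0% and 47.6% in DMSO, where SMARCD1 led with 53.5% and 51.7%. SMARCA2 made up 24.7% ± 7.26 of the SMARCA pair with pracinostat and 25.6% ± 8.32 with vorinostat at 6 h, against 13.1% ± 6.33 in DMSO (SD, n = 6, 5 and 6). SMARCD3 made up 7.00% ± 5.60 of the SMARCD family with pracinostat and 4.96% ± 2.33 with vorinostat at 14 days, against 0.799% ± 0.444 in DMSOP and 0.799% ± 0.475 in DMSOV (n = 5 each), and in OCILY1 with pracinostat it reached 16.5%. BCL7A made up 40.1% ± 6.45 and 38.8% ± 6.70 of the BCL7 family with pracinostat and vorinostat at 6 h, against 60.7% ± 8.92 in DMSO, so that BCL7B, at 51.8% ± 5.81 and 52.1% ± 7.78, was then the most abundant on average. WSUDLCL2 was the exception by union exons, with BCL7A at 48.1% and BCL7B at 41.3% with pracinostat, and 49.9% and 38.5% with vorinostat. With the longest transcript as length it was not an exception. BCL7A then made up at most 35.1% and 36.7% in any line at 6 h with pracinostat and vorinostat, and BCL7B at least 51.5% and 48.4%. By the longest transcript BCL7A and BCL7B were close already in DMSO, at 34.6 ± 13.1 and 33.5 ± 14.7 CPM per kilobase (SD, n = 16). At 14 days BCL7A was back at 67.6% ± 7.53 and 68.5% ± 5.32 by union exons, against 61.8% ± 5.67 in DMSOP and 60.6% ± 4.01 in DMSOV.

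Of the other SWI/SNF subunits, 18 of a list of 19 had a row in the table and were tested. With pracinostat at 6 h 2 were called higher and 7 lower, against 21.2% and 18.9% of all tested genes, and at 14 days 1 higher and 3 lower, against 12.3% and 10.2%. With vorinostat at 6 h 4 were called higher and 7 lower, against 23.1% and 20.9% of all tested genes, and at 14 days 1 higher and 6 lower, against 20.4% and 17.2%. The list's median log2 fold change was -0.15 and -0.16 at 6 h and -0.11 and -0.27 at 14 days, against 0.03, 0.02, 0.07 and 0.12 over all genes tested. DPF3 and DPF1, PHD finger subunits known from the muscle and nerve forms of the complex, had the largest rises at 6 h, with log2 fold changes of 1.90 ± 0.23 and 1.85 ± 0.30 with pracinostat and 2.15 ± 0.25 and 2.03 ± 0.31 with vorinostat. DPF3 averaged 10.4 ± 5.84 CPM with pracinostat (SD, n = 6) and 9.55 ± 4.18 CPM with vorinostat (n = 5) at 6 h, against 3.24 ± 3.33 CPM in DMSO (n = 6). At 14 days it was the only riser, at 1.36 ± 0.38 with pracinostat (adjusted p = 0.0188) and 2.03 ± 0.40 with vorinostat (adjusted p = 0.00111).

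The falls in that list concerned subunits of the other forms of the complex as well. BICRAL, a subunit of the non-canonical form, had a log2 fold change of -1.03 ± 0.14 with pracinostat and -1.28 ± 0.15 with vorinostat at 6 h. PBRM1, the bromodomain subunit of the polybromo form, fell at both times, with log2 fold changes of -0.76 ± 0.11 and -0.92 ± 0.11 at 6 h and -0.65 ± 0.11 and -1.03 ± 0.12 at 14 days, with pracinostat and vorinostat. ARID2, the ARID subunit of the polybromo form, had the largest falls at 14 days, -0.85 ± 0.19 (adjusted p = 0.00528) and -1.05 ± 0.19 (adjusted p = 0.000616).

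The genes whose levels followed SMARCD3 most closely over the 37 libraries, by Pearson's r of log2 CPM centred within line and time among 10184 genes, were ABAT (r = 0.950), HLA-DMA (0.924), SPECC1 (0.919), GSN (0.911) and GAL3ST4 (0.903). For BCL7A they were IGHG1 (0.941), AKT1S1 (0.927), TCF25 (0.925), GMIP (0.923) and NOB1 (0.921). IGHG1 belongs to a family of near-identical immunoglobulin genes between which counts may be split, so its value is uncertain. Among the 10 genes, SMARCD3 ran most against SMARCA4 (r = -0.857), and BCL7A ran most with ARID1B (0.882) and most against SMARCA2 (-0.825). The 37 points share lines, treatments and controls, so they are a description. SMARCD3 and BCL7A themselves were only weakly related (r = -0.291).

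Several of the 10 genes overlap genes on the opposite strand, and the sources used here give no strand setting for the counting. AC021097.1 covers 11.0% of the exon bases of SMARCD3 in GENCODE 29, AC069503.1 covers 9.78% of those of BCL7A, and MIR762HG covers 11.3% of those of BCL7C. Reads from the partners cannot be told apart from those of the gene there if strand was not used.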

How the data were processed

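RNA sequencing libraries of 6 lymphoma lines were prepared from total RNA with the Illumina TruSeq kit, per the labels' protocols. The authors' deposited table holds raw read counts per gene for 37 of the 38 labelled samples, and a further SUDHL4 vorinostat sample of 14 days was not analysed. STAR, edgeR and hg38 are named in the submitters' processing notes, with versions and strand setting not given in the sources used here. Identifiers were matched to GENCODE 29 (17859 of 18011 genes had a symbol). The test was edgeR 4.0.16 (R 4.3.3) on the counts, with TMM factors and a filter (filterByExpr, at least 10 counts and a total of 15). It used a robust quasi-likelihood fit, the cell line as block (line and time for the interaction) and Benjamini-Hochberg adjustment over all genes tested. Contrasts within a time were fitted on that time alone. The interaction and DMSO at 14 days against 6 h were fitted on all libraries, drug-treated ones included. The DMSO contrast had only the line as block. DMSOP and DMSOV of a line counted separately in it, so its p-values may be too small. SE is the log2 fold change divided by the root of F. CPM used 1 set of TMM factors over all libraries. Lengths are union exons.

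The 10 genes, the list of other subunits and the markers were chosen with earlier results of these data known, and 1 marker is not reported here. Named genes are all 10, the 2 largest called rises and falls of the other subunits per drug and time, and the 5 genes most like SMARCD3 and BCL7A whose mean log2 CPM reaches 2. Lines pair the libraries: deviations from group means correlated at 0.73 to 0.94 within a line at 6 h and 0.56 to 0.98 at 14 days, against at most 0.16 and 0.23 between lines. DMSOP and DMSOV libraries of a line differed beyond sampling noise (chi-square per degree of freedom 1.91 to 20.3). The fits were tested on simulated data. Alternatives were RLE size factors, library totals, no filter, no block, DESeq2 1.42.0, the mean of both DMSO sets, and each line left out. P-values measure the spread between these libraries, which may be partly technical.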

Additional observations from a re-analysis of the deposited data

Results flagged for a closer look

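Among 110 groups of values tested for an outlying sample, 4 had a sample set far from the others, where chance flags about 1 in 20. SUDHL4 with pracinostat at 14 days had 535 CPM of SMARCA4, with the next library at 280. PFEIFFER had 7.44 CPM of SMARCD3 in DMSO at 6 h, with the next at 2.89. PFEIFFER also had 106 CPM of BCL7A in DMSOV, with the next at 195. OCILY1 had a BCL7A log2 change of -1.11 with pracinostat at 6 h, with the next at -1.68.

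By the interaction test, the effect of each drug differed between the times for SMARCA2 and ARID1B. Doses are given for neither time, so a difference in dose cannot be told apart from time. SUDHL6 counted in the pracinostat effect at 6 h only. The log2 difference of the effect at 14 days over 6 h was -0.63 for SMARCA2 and 0.73 for ARID1B with pracinostat, and -0.58 and 0.79 with vorinostat. SMARCD3 and BCL7A were chosen on their drug response, so theirs are a description, with no test. They were 1.68 for SMARCD3 with pracinostat, 0.94 for SMARCD3 with vorinostat and 1.85 for BCL7A with each drug.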

How the results depend on the processing

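Over the alternatives, 957 of 1010 fold changes of the 10 genes stayed on their side of the threshold, 46 lost and 7 gained a call. Many of the 1010 were not called in the fit reported, as between the drugs, and so had no call to lose. The sign turned in 48 of the 1010, of which 0 were called, with sizes of at most 0.23 in the fit reported and 0.14 in the alternative. Without the cell line as block, counts of called genes fell to 577 (pracinostat, 6 h), 1106 (vorinostat, 6 h), 8 (pracinostat, 14 days), 696 (vorinostat, 14 days), 75 and 252 (effect at 14 days against 6 h, pracinostat and vorinostat), 3 (DMSO, 14 days against 6 h) and 0 (pracinostat against vorinostat, 6 h). Of the member calls, 6 were lost with each drug at 6 h, and 2 with pracinostat and 4 with vorinostat at 14 days. For the effect at 14 days against 6 h, 3 were lost with pracinostat and 2 with vorinostat, and for DMSO over time 2. DESeq2 called 50 genes between the drugs at 6 h. With the mean of both DMSO sets as control, 5008 genes were called for pracinostat at 14 days. RLE factors ended the SMARCD1 call with pracinostat at 14 days (adjusted p = 0.0506).

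With each line left out in turn, counts ranged from 1424 to 2766 for pracinostat at 14 days (1424 without PFEIFFER, 1793 without SUDHL4, 1970 without OCILY1), from 1599 (without SUDHL4) to 2892 for the pracinostat effect at 14 days against 6 h, and from 336 to 1238 for DMSO over time (336 without OCILY1, 410 without SUDHL4, 422 without WSUDLCL2). Between the drugs at 6 h they were 0 in every case. The cause was not tested. Library totals moved the median log2 fold change of all genes from 0.12 to 0.01 for vorinostat at 14 days, from 0.06 to -0.09 for the pracinostat effect over time and from 0.09 to -0.07 for that of vorinostat. Depth limits BCL7C and SMARCD3 in DMSO, at 1.24 to 15.2 CPM.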
